A study of Homo sapiens with 24 samples.

Results

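Lineage transcription factors of lung and gut were followed in H1299, a line of human non-small cell lung cancer. The 8 genes were taken by symbol from the 60563 named genes of the deposited counts, as regulators of lung adenocarcinoma, neuroendocrine lung cancer and gut: NKX2-1, FOXA1, FOXA2, GATA6, HNF4A, CDX2, NEUROD1 and YAP1. Poly(A) RNA was sequenced in 24 libraries. The control was H1299 transfected with vector (4 libraries). Stable expression of the p53 isoform Δ133p53α from a plasmid gave the clones Δ133p53α1, Δ133p53α2 and Δ133p53α8 (4 libraries each), and stable expression of Δ133p53β gave Δ133p53β5 and Δ133p53β10. Each line is 1 clone and control is a single line, so that an effect of an isoform and a difference between clones cannot be told apart with 3 clones of the one isoform and 2 of the other. Nothing in the sources used here says that the libraries of a line came from separate cultures, so that the p-values measure only the spread between libraries, which may be technical.

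Lineage factors of this kind bind DNA and keep a cell in the gene expression program of its tissue. NKX2-1 (TTF-1) marks the alveolar lineage and most lung adenocarcinomas, FOXA1 and FOXA2 open chromatin in endoderm, GATA6 acts in early endoderm, lung and gut, HNF4A drives liver and gut genes, and CDX2 is the master regulator of intestinal epithelium. NEUROD1 defines a neuroendocrine subtype of small cell lung cancer. YAP1 is not a DNA-binding factor but the coactivator of the TEAD factors at the end of the Hippo pathway, whose kinases keep it out of the nucleus.

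Of the 8 genes, CDX2 alone passed the test for a change, at low levels throughout. It was higher in all 3 Δ133p53α cell lines than in control, and almost no read was counted in either Δ133p53β cell line. GATA6 was lower in Δ133p53β than in Δ133p53α cell lines by less than the fold change threshold. No difference in NKX2-1, FOXA1 or YAP1 passed the test. FOXA2, HNF4A and NEUROD1 had from 0 to 4 reads per library.

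The counted reads of a library came to between 21531599 and 25381731. Sample titles and count columns disagree on the clone of 1 Δ133p53β library, which was left out of the fit, leaving 3 libraries of Δ133p53β5 and 23 in all. The libraries also fell into sets with opposite trends of expression with gene length (rank correlation across genes from 0.167 to 0.278 in a positive set of 12 and from -0.248 to -0.105 in a negative set of 12), and each line had libraries in both sets. Since genes are not independent replicates, these correlations were used to name the sets and for nothing else. Of 8 markers of cells that the culture should lack, PTPRC had 0 reads in every library and COL3A1 at most 3. The 5 with enough reads to be tested (PECAM1, CD68, COL1A1, ACTA2 and GFAP) were not called in any comparison, which does not show their absence. The summed level of the list was 6.51 to 24.05 CPM per library. Of 8 epithelial markers, CDH1 had at most 3 reads in any library, whereas KRT8 had at least 11255 in each.

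The promoters of CDX2 and GATA6 are shown because these genes differed between the isoforms. Each is the 250 bases before the gene start in RefSeq (GRCh38.p14), read 5′ to 3′ on the strand of the gene, with the capitals marking matches to the searched motifs. The CDX2 window lies at chr13:27969316-27969565 (minus strand) and the GATA6 window at chr18:22169339-22169588 (plus strand).
CDX2: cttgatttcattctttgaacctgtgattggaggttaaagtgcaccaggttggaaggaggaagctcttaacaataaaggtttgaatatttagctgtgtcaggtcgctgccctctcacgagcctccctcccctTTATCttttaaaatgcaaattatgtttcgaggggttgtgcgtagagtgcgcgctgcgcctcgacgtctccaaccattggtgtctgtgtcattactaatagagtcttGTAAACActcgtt
GATA6: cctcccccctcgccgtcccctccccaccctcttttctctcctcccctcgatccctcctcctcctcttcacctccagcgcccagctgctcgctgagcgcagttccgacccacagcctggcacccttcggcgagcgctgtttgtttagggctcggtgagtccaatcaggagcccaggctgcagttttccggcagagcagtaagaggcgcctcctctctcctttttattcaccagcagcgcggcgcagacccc

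The CDX2 window held 1 match to GATAA, the core of the GATA motif, and 1 match to TGTTTAC, that of the forkhead factors, both read on the opposite strand as printed. On either strand, GATAA was found in 21.0% and TGTTTAC in 2.98% of 27305 promoter windows of the same length. The GATA6 window held neither, nor TTTATG (CDX, 10.0% of windows), GGAATG (TEAD, 11.9%), CACTTG (NKX2, 9.59%) or CAAAGTCCA (HNF4, 0.293%), and the last 4 were not in the CDX2 window either. GC content was 45.2% for CDX2 and 64.4% for GATA6, against a median of 58.0% over all windows. These matches are letters in a window, not sites. The start used in these cells was not measured. Of the 8 genes, 7 had a window. GGAATG was in that of YAP1, which had 36 CpG in 250 bases against a median of 11.

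CDX2 lies at chr13:27960918-27969315 (GENCODE, GRCh38, minus strand), where the annotation places no other gene. The 4 control libraries had 2, 9, 6 and 2 reads. The Δ133p53α1 libraries had 19, 32, 39 and 29, the Δ133p53α2 libraries 26, 27, 15 and 12, and the Δ133p53α8 libraries 19, 18, 21 and 12. Every Δ133p53α library was therefore above every control library. The 3 Δ133p53β5 libraries had 1, 0 and 0 reads, the 4 Δ133p53β10 libraries 0, 1, 0 and 0, and the Δ133p53β library of unclear clone 0. All Δ133p53β libraries were thus below all the others, and at or under the 3 reads that a count of 0 allows. These limits cover counting error only, since reads without molecular identifiers are not independent molecules.

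**Figure D1:**
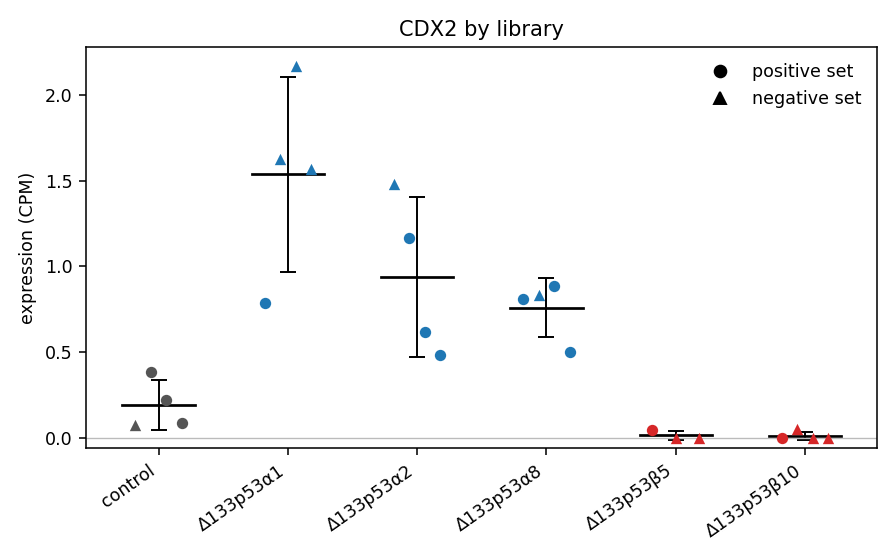
CDX2 expression in CPM (reads relative to the total of the library, with totals scaled by TMM) in each of the 23 libraries, by line. Lines and bars are the mean ± SD (n = 4, but 3 for Δ133p53β5), and circles and triangles mark the positive and negative sets by gene length trend. All 12 Δ133p53α libraries sit above all control libraries, and the 7 Δ133p53β libraries sit at or close to 0.

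In CPM, which are reads relative to the library total scaled by TMM, control had 0.191 ± 0.143 (SD, n = 4). Δ133p53α1 had 1.54 ± 0.57, Δ133p53α2 0.936 ± 0.467 and Δ133p53α8 0.759 ± 0.174 (SD, n = 4 each). The levels of the Δ133p53α cell lines overlapped each other. By edgeR's quasi-likelihood test with Benjamini-Hochberg adjustment over 18295 tested genes, the log2 fold change over control was 2.93 (SE 0.53, adjusted p = 0.00165) in Δ133p53α1, 2.22 (SE 0.53, adjusted p = 0.0145) in Δ133p53α2 and 1.94 (SE 0.53, adjusted p = 0.0395) in Δ133p53α8. Calls needed an adjusted p below 0.05 together with a change of 1.5 or more on the log2 scale in either direction, and 1 of the 5 members that could be tested was called in each line. The calls made up 2.58% of all tested genes for Δ133p53α1, 2.81% for Δ133p53α2 and 2.53% for Δ133p53α8 (4.83%, 5.28% and 4.51% by adjusted p alone). CDX2 passed the filter on low counts only through the Δ133p53α libraries, and its presence among the tested genes is not independent of its difference.

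CDX2 was also lower than control in both Δ133p53β cell lines, a comparison that rests on few reads. The 19 reads of control stood against 1 read in each of these lines. Relative to library totals scaled by TMM, control was 12.7 times as high as Δ133p53β5 (exact Poisson 95% interval 2.01 to 527) and 16.6 times as high as Δ133p53β10 (2.65 to 692), intervals that hold counting error alone. The fitted values were called (edgeR's quasi-likelihood test, Benjamini-Hochberg adjusted p = 0.0369 and 0.0134), where 4.27% and 4.73% of tested genes were called (8.03% and 9.81% by adjusted p alone). Control itself was low, with 2 of its 4 libraries at 2 reads. The gene was admitted to these tests through the Δ133p53α libraries, and fits of control and a single Δ133p53β cell line left it untested, so that these calls do not stand on their own.

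Between the isoforms, the 12 Δ133p53α libraries had 269 CDX2 reads and the 7 Δ133p53β libraries 2. Relative to library totals scaled by TMM the ratio was 79.4 (exact Poisson 95% interval 21.8 to 659), and single pairs of lines ranged from 50.7 (8.81 to 2030) for Δ133p53α8 over Δ133p53β5 to 130 (23 to 5190) for Δ133p53α1 over Δ133p53β10. The difference was called (edgeR's quasi-likelihood test, Benjamini-Hochberg adjusted p = 8.77e-07), whereas 1.39% of all tested genes were called between the isoforms and 4.76% passed by adjusted p alone. A test of any difference among the 5 lines gave an adjusted p of 1.45e-05 for CDX2 by the same method, and 3.5% of tested genes passed it. No other member did. CDX2 was admitted to these tests, too, through the Δ133p53α libraries, where it was high. CDX2 was the only tested gene called higher in all 3 Δ133p53α and lower in both Δ133p53β cell lines, among 80 genes called higher in the former and 419 called lower in the latter. The 5 comparisons share the control libraries, and this count was made after the CDX2 values were seen. MAGEA1, a cancer-testis antigen, was the only gene with the reverse pattern.

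The isoform difference in CDX2 remained called in all 34 alternative analyses that tested it, with an adjusted p of at most 0.033. A filter at a mean of 1 CPM left CDX2 untested. The main filter admitted it through the Δ133p53α libraries, so that being tested was not independent of the difference. The isoform difference was also seen within each set of libraries. In the positive set, Δ133p53α libraries had 0.484 to 1.17 CPM and Δ133p53β libraries at most 0.0428. In the negative set, they had 0.835 to 2.17 CPM and at most 0.0485. The calls against control were less stable. That of Δ133p53α8 was lost without Δ133p53α1 replicate 2 (adjusted p = 0.0529), without any 1 of its own 4 libraries (0.0504 to 0.109), and without control replicate 1 (0.114), 3 (0.0813) or 4 (0.111). That of Δ133p53β5 was lost without its replicate 2 (0.148) or 3 (0.182) and without control replicate 2 (0.116) or 3 (0.0852). Those of Δ133p53α2 and Δ133p53β10 were each lost without 1 control library, replicate 4 (0.0553) and replicate 2 (0.0586). The call of Δ133p53α1 was kept in all of these fits. None of the calls against control was kept within a single set, where control had 3 or 1 libraries.

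Among gut genes and the neighbours of CDX2, no change passed the test. Of 18 gut and liver markers, 13 had at most 3 reads in any library, and FABP1, MUC2, TFF3, SI and APOH had none. CDH17 and KRT20, which are known CDX2 targets of intestinal epithelium, had at most 3 reads in any library, also where CDX2 was higher. None of the 3 markers that were tested (VIL1, GUCY2C and SERPINA1) was called in any comparison. The summed level of the list ranged from 18.7 to 34.9 CPM for control, from 16.2 to 50.5 for Δ133p53α and from 16.7 to 28.2 for Δ133p53β. CDX1 had at most 3 reads in any library, and CDX4 had none. Of 21 annotated genes within 500 kb of CDX2, a distance chosen after its values were seen, 5 were tested (FLT3, LNX2, PAN3, PAN3-AS1 and POLR1D), and none was called in any comparison.

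GATA6 is a zinc finger factor of early endoderm and lies at chr18:22169589-22202528 (plus strand). The Δ133p53α1 libraries had 8.88, 8.30, 6.17 and 7.73 CPM, the Δ133p53α2 libraries 5.18, 6.39, 7.59 and 8.23, and the Δ133p53α8 libraries 7.73, 7.98, 5.75 and 5.49. The Δ133p53β5 libraries had 5.57, 4.75 and 4.37 CPM, the Δ133p53β10 libraries 6.39, 5.87, 4.16 and 3.66, and the library of unclear clone 2.98. Control had 5.82, 5.13, 4.61 and 5.20. Most Δ133p53α libraries were above the Δ133p53β libraries, but the ranges overlapped, and the Δ133p53β libraries lay on both sides of control.

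The log2 fold change of GATA6 between Δ133p53β and Δ133p53α cell lines was -0.52 (SE 0.15, edgeR's quasi-likelihood test, Benjamini-Hochberg adjusted p = 0.048). It passed by adjusted p but not by fold change, so that 2 of the 5 tested members passed by adjusted p alone in this comparison, where 4.76% of all tested genes did. The other of the 2 is CDX2, admitted to the test through the Δ133p53α libraries. The log2 fold changes over control were 0.55 (SE 0.22, adjusted p = 0.137) for Δ133p53α1, 0.38 for Δ133p53α2, 0.35 for Δ133p53α8, -0.11 for Δ133p53β5 and -0.09 for Δ133p53β10 by the same method, and none passed. The isoform difference is a marginal one. Leaving out 1 library at a time, its adjusted p was over 0.05 in 16 of 23 fits, up to 0.158 without Δ133p53β5 replicate 3, and it was 0.0544 with the replicate number as a block. The direction was the same in every alternative.

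GATA6-AS1, a long noncoding RNA on the opposite strand, starts inside GATA6 and spans the printed GATA6 promoter (chr18:22164886-22169878). It was higher in Δ133p53α1 (0.846 ± 0.16 CPM, SD, n = 4) and lower in Δ133p53β5 (0.21 ± 0.0573, n = 3) and Δ133p53β10 (0.268 ± 0.105, n = 4) than in control (0.413 ± 0.15, n = 4) in the mean, but was called in none of these lines. Between the isoforms it was called, with a log2 fold change of -1.52 (SE 0.37, edgeR's quasi-likelihood test, Benjamini-Hochberg adjusted p = 0.0176). The libraries overlapped, since Δ133p53α8 ranged from 0.171 to 1.25 CPM. The call was lost in 6 of the 23 fits without 1 library. Without Δ133p53α1 replicate 4, Δ133p53α2 replicate 4, Δ133p53α8 replicate 2 or Δ133p53β10 replicate 4 the log2 fold change came to lie between -1.49 and -1.27, and without Δ133p53β5 replicate 1 or 2 the adjusted p was 0.0614 or 0.0598. It was lost with the replicate number as a block as well (adjusted p = 0.051). The same held in limma voom, in each set of libraries alone, and with the unclear library counted in Δ133p53β5. The libraries were strand-specific, but the strand setting of the counting is not given in the sources used here, so that reads of GATA6 and GATA6-AS1 in the overlap cannot be told apart.

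**Figure D2:**
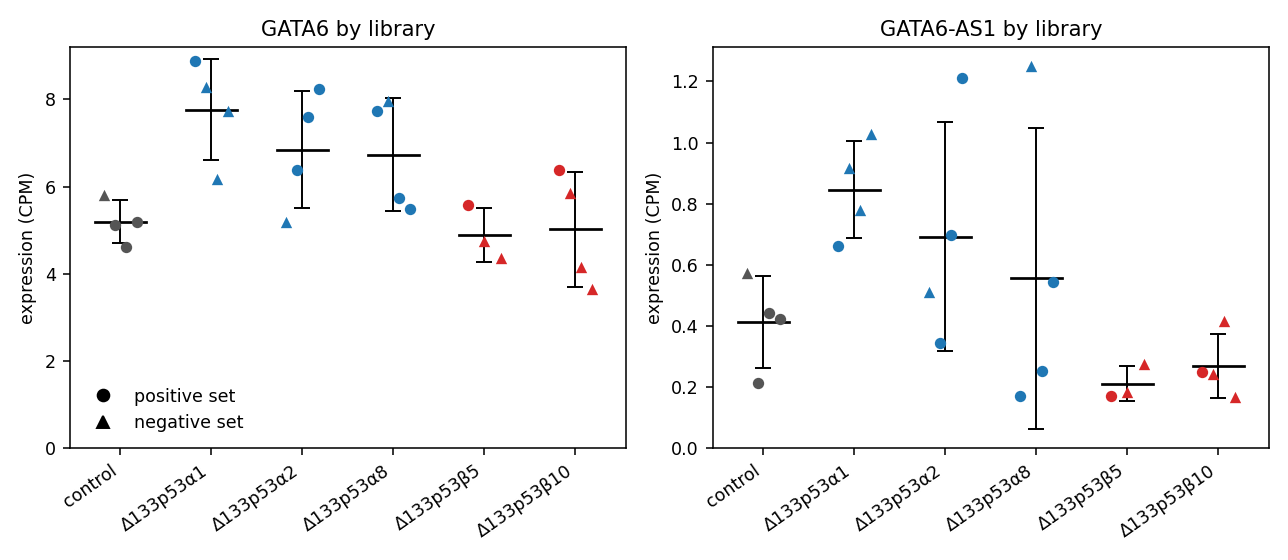
GATA6 (left) and GATA6-AS1 (right) in CPM in each of the 23 libraries, by line, with mean ± SD (n = 4, but 3 for Δ133p53β5) and the sets by gene length trend as circles and triangles. GATA6 lies between 5.18 and 8.88 CPM for Δ133p53α and between 3.66 and 6.39 for Δ133p53β, and both transcripts overlap between the isoforms.

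Of the other GATA factors, none was called in a line or between the isoforms. GATA2, a factor of blood and endothelium, passed the test of any difference among the 5 lines, as did 3.5% of tested genes. Between the isoforms it passed by adjusted p alone in the opposite direction to GATA6, with a log2 fold change of 1.05 between Δ133p53β and Δ133p53α (SE 0.18, edgeR's quasi-likelihood test, Benjamini-Hochberg adjusted p = 0.00134). GATA2 was also higher than control by adjusted p alone in Δ133p53β5 (1.385) and Δ133p53β10 (1.218). GATA3 was lower than control by adjusted p alone in Δ133p53α1 (-1.36) and Δ133p53β10 (-1.06), with an adjusted p over 0.05 in 3 and 6 of the 23 fits without 1 library. GATA4, a close relative of GATA6 in endoderm, had at most 3 reads in any library.

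FOXA1 is the forkhead pioneer factor of lung, breast and prostate epithelium (chr14:37589552-37596059, minus strand). Control libraries had 1.26, 2.59, 0.886 and 2.32 CPM. Δ133p53α1 libraries had 3.76, 2.55, 1.17 and 2.49, Δ133p53α2 libraries 0.968, 3.20, 2.01 and 2.54, and Δ133p53α8 libraries 3.67, 2.23, 2.92 and 3.77. Δ133p53β5 libraries had 3.17, 2.65 and 2.16 and Δ133p53β10 libraries 3.28, 2.13, 1.30 and 2.25. Every line overlapped control, and the highest values were in Δ133p53α1 and Δ133p53α8. The log2 fold changes over control ranged from 0.29 in Δ133p53α2 to 0.81 in Δ133p53α8 (SE 0.40, edgeR's quasi-likelihood test, Benjamini-Hochberg adjusted p = 0.35), and the isoforms differed by -0.08 (SE 0.27, adjusted p = 0.927). FOXA2, its partner in foregut endoderm, had 0 reads in all 24 libraries, each of which allows up to 0.111 to 0.171 CPM. The third forkhead factor of the family, FOXA3, was tested and not called.

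NKX2-1 (chr14:36516392-36521149, minus strand) was close to the limit of detection, with 161 reads over 24 libraries. Control had 4, 10, 1 and 5 reads. Δ133p53α1 had 14, 7, 4 and 5, Δ133p53α2 2, 5, 1 and 6, and Δ133p53α8 6, 10, 9 and 10. Δ133p53β5 had 12, 12 and 9 and Δ133p53β10 9, 7, 8 and 2. Only the 3 Δ133p53β5 libraries stood at the upper end together, and even these overlapped control. The largest log2 fold change was 1.23 in Δ133p53β5 (SE 0.57, edgeR's quasi-likelihood test, Benjamini-Hochberg adjusted p = 0.216). Its unadjusted p was 0.0433.

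Markers of the alveolar and club cells of the lung were mostly silent. SFTPA1, SFTPA2, SLC34A2 and SCGB1A1 had 0 reads in every library, and 9 of the 16 lung markers had at most 3, among them SFTPC, SFTPD, SCGB3A2 and HOPX. Of 5 tested, ABCA3, the lipid transporter of lamellar bodies, fell in both Δ133p53β cell lines, with a log2 fold change of -2.32 in Δ133p53β5 and -2.13 in Δ133p53β10 (SE 0.25 and 0.22, edgeR's quasi-likelihood test, Benjamini-Hochberg adjusted p = 3.95e-06 and 1.83e-06). Its libraries had 57.8 to 97.0 CPM in control and 9.97 to 20.7 in Δ133p53β, with those of Δ133p53α between (25.4 to 56.7). ABCA3 was also lower by adjusted p alone in Δ133p53α2 (-1.25) and Δ133p53α8 (-1.33). Both calls were kept without any 1 library, and that of Δ133p53β10 was lost in the negative set alone. LAMP3, a lysosomal protein of alveolar type II cells, fell in Δ133p53β10 (log2 fold change of -1.66, adjusted p = 0.026), a call lost without control replicate 3 or Δ133p53β10 replicate 2, 3 or 4 (log2 fold changes up to -0.90, adjusted p up to 0.201). LPCAT1, an acyltransferase of surfactant lipids, was lower than control by adjusted p alone in Δ133p53α2 (-0.87, adjusted p = 0.0399, over 0.05 in 17 of the 23 fits without 1 library) and Δ133p53α8 (-1.35, adjusted p = 0.00183), and so higher in Δ133p53β than in Δ133p53α (0.73, adjusted p = 0.00917), the reverse of ABCA3 (-1.14, adjusted p = 5.11e-05). The median log2 fold change of the 5 tested markers was -0.65, -0.24 and -0.29 for Δ133p53α1, Δ133p53α2 and Δ133p53α8, and -0.55 and -0.59 for Δ133p53β5 and Δ133p53β10, against -0.08 to 0.01 over all tested genes.

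Of the NK2 relatives of NKX2-1, a pair were called. NKX2-2, a factor of neural tube and endocrine pancreas, had 0.382 to 0.760 CPM in control and 0.780 to 4.06 CPM in all 19 libraries of the 5 lines, with no overlap. It rose in 4 lines, with log2 fold changes of 2.51 (Δ133p53α1), 1.79 (Δ133p53α8), 1.86 (Δ133p53β5) and 2.12 (Δ133p53β10) (edgeR's quasi-likelihood test, Benjamini-Hochberg adjusted p from 0.000487 to 0.00801), and passed by adjusted p alone in Δ133p53α2 (1.38, adjusted p = 0.0432, over 0.05 in 16 of the 23 fits without 1 library). The 4 calls were kept without any 1 library, but not within a single set. NKX2-5, the cardiac factor, fell in Δ133p53α2, Δ133p53β5 and Δ133p53β10 (log2 fold changes of -3.37, -3.09 and -3.71, adjusted p = 0.00137, 0.0054 and 0.00059). Its control libraries had 21 to 45 reads, and those lines 0 to 6, whereas Δ133p53α1 had 18 to 34. Δ133p53α8 had 8 to 14, below every control library, but was not called. NKX2-5 was also called lower in Δ133p53β than in Δ133p53α (-1.72), a call lost in 12 of the 23 fits without 1 library. Of the 23 relatives of the 8 factors, 10 were tested and 10 had at most 3 reads in any library.

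HNF4A, the nuclear receptor of liver and gut, had 1 read in all 24 libraries, in Δ133p53β5 replicate 1. NEUROD1, a basic helix-loop-helix factor of neuroendocrine cells, had 33 reads in all, from 0 to 4 per library and in every line. Both were under the filter and no comparison was made. INSM1, another neuroendocrine factor, and CHGA, a granule protein, had at most 3 reads in any library, and CALCA and GRP had none. Of 16 neuroendocrine markers, 8 were tested. SYP, a synaptic vesicle protein, had 3.13 to 6.09 CPM in control and 0.827 to 2.76 in all 19 libraries of the 5 lines. It fell in Δ133p53α2, Δ133p53α8 and Δ133p53β5 (log2 fold changes of -1.65, -1.73 and -1.81, edgeR's quasi-likelihood test, Benjamini-Hochberg adjusted p = 0.00473, 0.00365 and 0.00458). The log2 fold changes of SYP were -1.38 in Δ133p53α2 and -1.47 in Δ133p53α8 without control replicate 3, under the threshold, that of Δ133p53α2 was under it without its replicate 2 or 4 as well, and that of Δ133p53β5 had an adjusted p of 0.0576 without its replicate 3. CHGB, another granule protein, had 6.51 to 18.8 CPM in control and fell in both Δ133p53β cell lines, to 2.08 to 3.59 in Δ133p53β10 (adjusted p = 0.000207) and to 3.31 to 4.28 in Δ133p53β5 (log2 fold change of -1.55, adjusted p = 0.00772), the latter lost without control replicate 1 or 3 or Δ133p53β5 replicate 3 (log2 fold change up to -1.15, adjusted p up to 0.0692). SCG3, of the same secretory granules, had 7 to 16 reads in Δ133p53α2 and 0 to 2 in every other library, and was called there alone (adjusted p = 0.00345). It passed the filter on low counts only through the Δ133p53α2 libraries, so that its being tested was not independent of the difference.

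YAP1 (chr11:102110447-102233424, plus strand) was by far the most abundant member. Control libraries had 80.4, 131, 110 and 126 CPM. Δ133p53α1 libraries had 127, 55.9, 43.3 and 40.6, Δ133p53α2 libraries 35.1, 114, 104 and 110, and Δ133p53α8 libraries 132, 63.4, 117 and 146. Δ133p53β5 libraries had 129, 81.3 and 102 and Δ133p53β10 libraries 159, 65.0, 32.8 and 73.8. Within each line the values spread up to several fold, and every line overlapped control. No comparison passed the test. The log2 fold changes over control ranged from -0.78 in Δ133p53α1 (SE 0.45, edgeR's quasi-likelihood test, Benjamini-Hochberg adjusted p = 0.256) to 0.01 in Δ133p53α8, and the isoforms differed by 0.06 (SE 0.30, adjusted p = 0.954).

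The spread of YAP1 followed the sets of libraries. The 12 libraries of the positive set had 104 to 159 CPM and the 11 of the negative set 32.8 to 102, with no overlap. Within the positive set, control had 110 to 131 CPM, Δ133p53α libraries 104 to 146 and the Δ133p53β libraries 129 and 159. Within the negative set, control had 80.4 CPM, Δ133p53α libraries 35.1 to 63.4 and Δ133p53β libraries 32.8 to 102. FOXA1 leaned the same way with overlap, with medians of 3.04 and 2.16 CPM in the positive and negative set. GATA6 did less so (6.07 and 5.82). The part of this trend in the comparisons of YAP1 and FOXA1 was not tested.

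**Figure D3:**
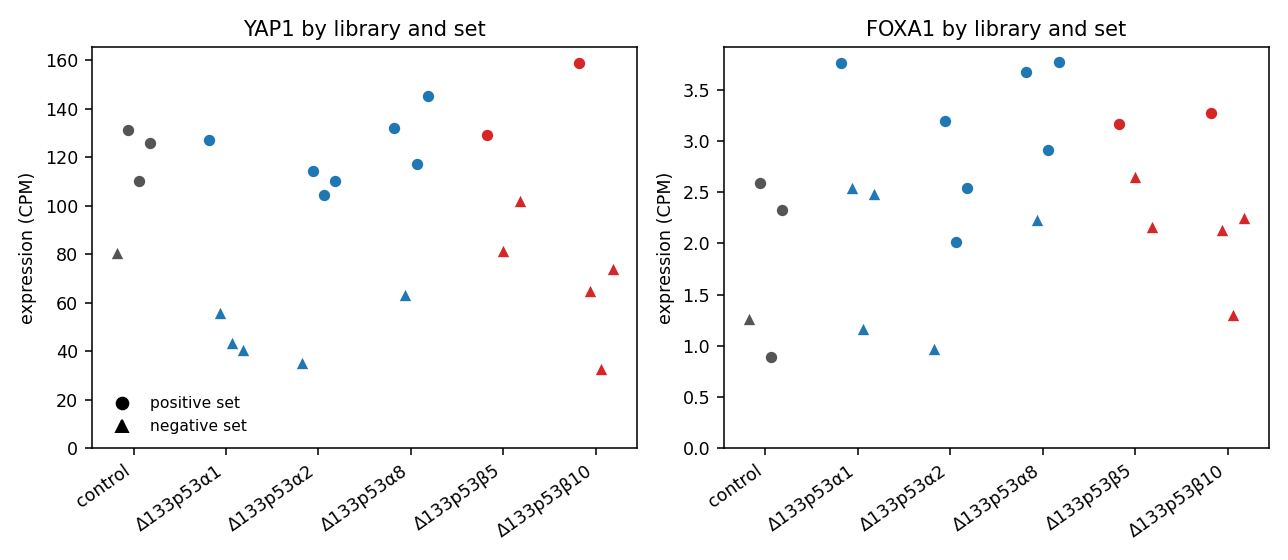
YAP1 (left) and FOXA1 (right) in CPM in each of the 23 libraries, by line, with the positive (circles) and negative (triangles) sets by gene length trend. All YAP1 values of the positive set (104 to 159 CPM) lie above all of the negative set (32.8 to 102 CPM), in every line, whereas the FOXA1 values overlap.

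The genes whose log2 CPM followed YAP1 most closely over the 23 libraries were STXBP5, ATP2C1 and OSBPL11 (Pearson r = 0.989, 0.987 and 0.985), as a description of libraries that share the sets. Within the positive set r was 0.857, 0.848 and 0.624, and within the negative set 0.978, 0.978 and 0.986. For FOXA1 they were CPSF7, MICB and CRKL (0.893, 0.892 and 0.891). For GATA6 they were ENSG00000266283 (0.834), which overlaps the end of GATA6, C10orf55 (0.789) and TNFRSF21 (0.78).

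All 20 core genes of the Hippo pathway around YAP1, from the kinases STK3 and LATS to the TEAD factors, were tested, and 1 of them was called in 1 line. AMOT, a scaffold that holds YAP1 in the cytoplasm, fell in Δ133p53α2, with 1.88 to 3.16 CPM against 4.40 to 10.5 in control (log2 fold change of -1.70, SE 0.36, edgeR's quasi-likelihood test, Benjamini-Hochberg adjusted p = 0.00493). In that line 2.81% of all tested genes were called. The AMOT values of Δ133p53β5, 3.65 to 4.20 CPM, were also below every control library, without a call, and Δ133p53α1 had 3.11 to 7.31. No other core gene was called in any line. WWTR1 (TAZ), the paralog of YAP1, was lower by adjusted p alone in Δ133p53α1 (-0.97), Δ133p53β5 (-0.97) and Δ133p53β10 (-1.11), and TEAD3 was higher by adjusted p alone in Δ133p53α8 (0.76) and Δ133p53β10 (0.58). Leaving out 1 library, WWTR1 had an adjusted p over 0.05 in 5, 5 and 0 of 23 fits and TEAD3 in 0 and 3. The median of the list ranged from -0.45 in Δ133p53α1 to -0.05 in Δ133p53α8, against -0.08 and -0.02 over all tested genes.

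Of 23 target genes of YAP1, 22 were tested, and their median log2 fold changes lay between -0.20 and 0.06 in the 5 lines. IGFBP3, a binding protein of insulin-like growth factors, was called lower in all 5 lines (-3.02 to -2.40), but control itself had 29.5, 89.2, 2.29 and 103 CPM, and its replicate 3 was below every library of the lines (4.94 to 15.7). The calls of Δ133p53α1, Δ133p53α8 and Δ133p53β10 were kept without any 1 library, but all 5 were lost in limma voom and in pairwise fits. Those of Δ133p53α2 and Δ133p53β5 were also lost without control replicate 2 or 4, without Δ133p53α2 replicate 1 or 3 or any 1 of the 3 Δ133p53β5 libraries, respectively (adjusted p up to 0.0975 and 0.0956). ANKRD1, a stress-response target, was called higher in Δ133p53β5 (log2 fold change of 2.35, adjusted p = 0.0496), and TGFB2 lower in Δ133p53β10 (-2.01, adjusted p = 0.0442), both by edgeR's quasi-likelihood test with Benjamini-Hochberg adjustment. Of the other lines, Δ133p53α8 had an ANKRD1 log2 fold change of 2.21 (adjusted p = 0.0781), and no difference in ANKRD1 among the 5 lines passed (adjusted p = 0.603). Its control libraries had 34.5, 130, 3.47 and 145 CPM, those of Δ133p53β5 374 to 424 and those of Δ133p53α8 99.5 to 535. The ANKRD1 call was lost in 16 of 23 fits without 1 library, that of TGFB2 in 14 (adjusted p up to 0.132 and 0.128). No target was called between the isoforms.

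**Figure D4:**
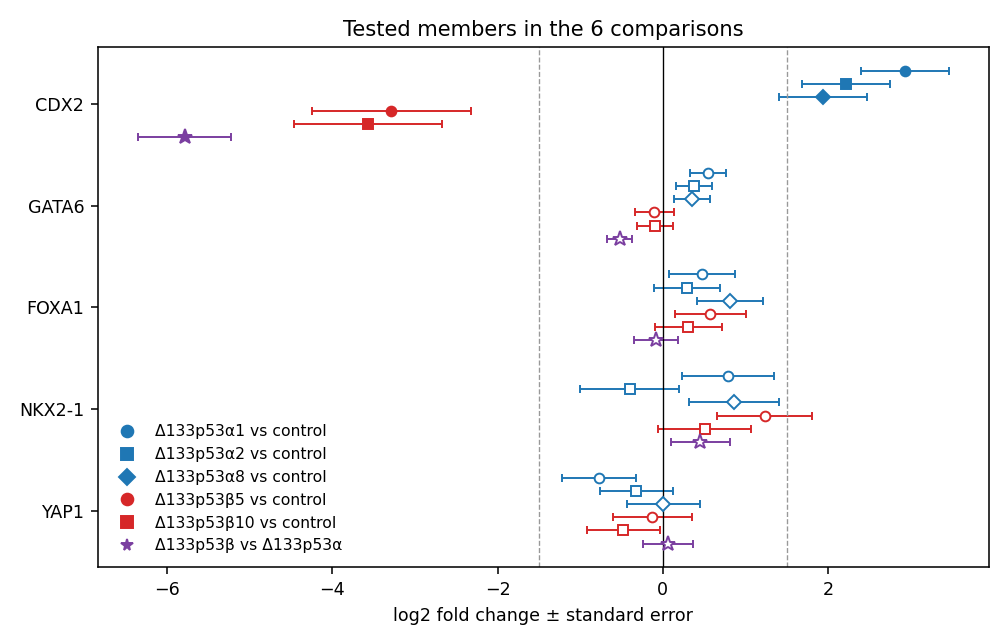
Log2 fold change ± SE of the 5 tested members in each line against control and between the isoforms (Δ133p53β minus Δ133p53α), from edgeR's quasi-likelihood test, with filled symbols for called changes and dashed lines at the threshold of 1.5. Filled symbols are those of CDX2, and its fitted values in Δ133p53β (-3.29, -3.57 and -5.79) rest on 0 or 1 read per library. All other members stay within the dashed lines.

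Among other lineage factors of the lung, SOX9, a factor of the distal lung progenitors, had 23.9 to 69.8 CPM in control and 0 to 5 reads in each library of the 5 lines. No read was counted in Δ133p53α8, which at 3 reads per library is at least 338-fold lower than control. The other lines had 1 to 6 reads against 4526 in control, with control from 661 times (exact Poisson 95% interval 303 to 1800) the level of Δ133p53β10 to 4050 times (726 to 160000) that of Δ133p53α2. SOX9 was called lower in all 5 lines (in Δ133p53β10, edgeR's quasi-likelihood test, Benjamini-Hochberg adjusted p = 6.21e-08), and every SOX9 call was kept in all alternatives. MYCL was the only other of 11 tested factors called, lower in Δ133p53β10 (0.207 to 0.312 CPM, against 0.612 to 1.92 in control, adjusted p = 0.0156), and lost without control replicate 3 (adjusted p = 0.0931). TP63, FOXJ1, ELF3, EHF and GRHL2 had at most 3 reads in any library. SOX9 moved in all 5 lines in 1 direction, whereas CDX2 was above control with Δ133p53α and below it with Δ133p53β.

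Epithelial and mesenchymal markers were followed beside the members. Of 4 epithelial markers tested, KRT8, a keratin of simple epithelium, rose in Δ133p53α1, Δ133p53α2, Δ133p53α8 and Δ133p53β10 (log2 fold changes of 2.39, 2.14, 1.56 and 1.58, edgeR's quasi-likelihood test with Benjamini-Hochberg adjustment), with 415 to 726 CPM in control and 1060 to 4348 in all 19 libraries of the lines. Its log2 fold change in Δ133p53α8 fell to 1.31 or more without its replicate 2 or control replicate 3, and in Δ133p53β10 to 1.23 without its replicate 3, both under the threshold. KRT18, its partner keratin, was called higher in Δ133p53α1 (1.85), and this call and the KRT8 call of Δ133p53β10 were lost when the fit took the library set as a term. CLDN4, a tight junction protein, was called lower in Δ133p53β5 (-2.51) and Δ133p53β10 (-2.38), the former lost without Δ133p53β5 replicate 1 or 3 (adjusted p up to 0.0702). Its control libraries were uneven, with 5.24, 1.91, 5.83 and 1.18 CPM. Those of Δ133p53β had 0.456 to 1.12 and those of Δ133p53α 0.513 to 3.73. Of 6 mesenchymal markers tested, FN1, fibronectin, was called lower in Δ133p53β10 (-1.69) and no other was called in any line. That call was lost without control replicate 3 or Δ133p53β10 replicate 2, 3 or 4 (adjusted p up to 0.142).

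On a scale corrected for length (CPM per kilobase of annotated exon, mean over 23 libraries), the members ranked as YAP1 (15.0), GATA6 (1.61), FOXA1 (0.544), CDX2 (0.170), NKX2-1 (0.0972), NEUROD1 (0.00736), HNF4A (0.000183) and FOXA2 (0). YAP1 was above GATA6 and GATA6 above FOXA1 in all 23 libraries. The order of CDX2 and NKX2-1 depended on the line. CDX2 was the higher in all 12 Δ133p53α libraries, in 1 of 4 control libraries and in 0 of 7 Δ133p53β libraries. In Δ133p53α1, CDX2 came close to FOXA1 (0.437 ± 0.162 and 0.564 ± 0.24, SD, n = 4), which do not differ beyond their spread. In these bulk libraries, fewer cells with a transcript and less of it per cell cannot be told apart.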

How the data were processed

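Per the study's methods, the libraries were strand-specific mRNA libraries. Reads were trimmed with Cutadapt, aligned with HISAT2 (GRCh38) and counted with featureCounts on Ensembl gene models. The deposited values are raw read counts per gene, not normalized, under gene symbols. The strand setting and the treatment of reads with several alignments are not given in the sources used here. One unnamed row, without reads, was dropped. Totals per library were 21531599 to 25381731 counts.

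Libraries were grouped by their titles. The titles give 5 libraries to Δ133p53β10 and 3 to Δ133p53β5, and the count columns name 4 of each. The library without a matching title was left out of the fit. No library repeated another (chi-square per degree of freedom of at least 17.2 over 33 pairs of the same line).

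Tests were run in edgeR 4.0.16 (R 4.3.3), as 1 quasi-likelihood model of the 6 groups (17 residual degrees of freedom) on 18295 genes that passed filterByExpr by group and held at least 99.88% of each library's reads. Libraries were scaled by TMM, and p-values were adjusted across the tested genes by Benjamini-Hochberg. Standard errors are the log2 fold change over the root of F. The study's methods state DESeq2, run here as an alternative (1.42.0) like limma voom (3.58.1). Further alternatives changed the scaling (RLE), the filter, the thresholds or the place of the unclear library, fitted lines in pairs, took the replicate number as a block or the set of libraries as a term, used each set alone, or left out each library in turn. Replicate numbers did not pair the libraries. The procedure was tested on simulated counts. Lengths and positions are from GENCODE and promoter windows from RefSeq (GRCh38.p14).

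The members and gene lists were chosen with earlier results of these data known. Named genes are the members and, apart from some genes not reported here, up to 6 genes of each list with the most lines called, and the 3 genes most correlated with each member of at least 1 CPM. Genes named for their low reads, and the neighbours of CDX2, were named after their values were seen.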

Additional observations from a re-analysis of the deposited data

Results flagged for a closer look

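CDX2 differed between the isoforms, with a log2 fold change of -5.79 between Δ133p53β and Δ133p53α cell lines (edgeR's quasi-likelihood test, Benjamini-Hochberg adjusted p = 8.77e-07), a fitted value that rests on 2 reads in Δ133p53β, and was lower in all 7 Δ133p53β than in all 12 Δ133p53α libraries. GATA6 differed in the same direction by -0.52 (adjusted p = 0.048), with overlapping libraries. The YAP1 level of Δ133p53α2 replicate 1, 35.1 CPM, stood apart from the other 3 libraries of its line, with a gap of 0.875 of the range. It is the only library of Δ133p53α2 in the negative set. Of 25 groups of libraries examined for such gaps, 1 stood apart, and chance gives about 1 in 20.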

How the results depend on the processing

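Each comparison called 1 member, CDX2. With a mean of at least 1 CPM required, CDX2 and NKX2-1 were not tested and 0 members were called in all 7 comparisons. Without a filter, 0 were called in Δ133p53α8 and Δ133p53β5 (CDX2 adjusted p = 0.054 and 0.0688). DESeq2 called 0 in Δ133p53β5 (0.0505) and 2, CDX2 and GATA6, among the 5 lines, and limma voom 0 in Δ133p53β5 (0.0583). Pairwise fits called 0 in Δ133p53α2, Δ133p53α8, Δ133p53β5 and Δ133p53β10, without a test of CDX2 in the Δ133p53β cell lines. The positive set alone called 0 in all 5 lines and among them, the negative set alone 0 in all 5 lines, with fewer libraries. By adjusted p alone, 2 members were called between the isoforms, where 4.76% of all tested genes passed. Without 1 library, from 0 to 1 were called in Δ133p53α2, Δ133p53α8, Δ133p53β5 and Δ133p53β10.

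Changes that did not pass also turned in direction. YAP1 in Δ133p53α8 was -0.004 at 1 CPM, -0.035 in limma voom, -0.053 with the replicate block, -0.052 with the set as a term, -0.343 in the negative set and -0.13 to 0.204 without 1 library. YAP1 in Δ133p53β5 was 0.37 with the set as a term, 0.08 in the positive set, 0.209 in the negative set and -0.298 to 0.021 without 1 library. In the positive set, YAP1 was 0.043 in Δ133p53α1 and 0.365 in Δ133p53β10, and GATA6 0.162 in Δ133p53β5 and 0.344 in Δ133p53β10. In the negative set, FOXA1 and GATA6 were -0.398 and -0.183 in Δ133p53α2. Between the isoforms, FOXA1 was 0.171 with the set as a term, 0.392 in the negative set and -0.2 to 0.01 without 1 library, and YAP1 -0.025 with the unclear library in Δ133p53β5 and -0.199 to 0.238 without 1 library. Without 1 library, GATA6 in Δ133p53β10 was -0.189 to 0.032 and NKX2-1 in Δ133p53α2 -0.739 to 0.217. The cause was not tested.

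Same-numbered libraries were not paired (correlations of their deviations from -0.88 to 0.889), and the replicate block changed no call of a member. Of 40 calls of listed genes, 24 were kept without any 1 library, and all 40 kept their direction in every alternative. Counts over all genes moved most in the negative set alone (100 in place of 472 in Δ133p53α1, 24 of 514 in Δ133p53α2, 13 of 463 in Δ133p53α8, 156 of 782 in Δ133p53β5, 205 of 866 in Δ133p53β10), between the isoforms in the positive set alone (92 of 254), and among the 5 lines from 97 in the negative set to 1840 with DESeq2, against 640. Upwards, they reached 1606 without Δ133p53α1 replicate 1 and 1301 without Δ133p53β10 replicate 1 in those lines. CDX2 and NKX2-1 had 1 to 10 reads per library in control, and their log2 fold changes over control had standard errors of 0.53 to 0.96.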
